A study of Mus musculus with 2 samples.

Results

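The SLAM receptors are immunoglobulin-type surface proteins of blood cells, and 6 of them, Ly9, Slamf7, Cd48, Slamf1, Cd84 and Slamf6, were described here together with Sh2d1a, the gene of their adaptor SAP. These 7 genes, of 21938 protein-coding genes, were taken by name from the mouse annotation GENCODE M21. A region of accessible chromatin was counted for a gene when it lay in the gene body or when its strongest summit had a transcription start site (TSS) of that gene as the nearest protein-coding TSS within 100 kb. By this rule 27 of 26090 regions belonged to the 7 genes.

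Chromatin accessibility had been measured by ATAC-seq, in which a transposase inserts sequencing adaptors into DNA that is not packed into closed chromatin. The cells were activated regulatory T cells, the CD4 T cells that express Foxp3 and restrain other immune cells, from male mice aged 4 months with the alleles Foxp3CreERT2 and Rosa26YFP. Foxp3CreERT2 places a tamoxifen-inducible Cre recombinase under the control of the Foxp3 locus, and Rosa26YFP is a fluorescent reporter that Cre switches on. The 2 libraries are technical replicates 1 and 2 of biological replicate 1, and they form 1 group with no control. Each deposited peak list stands for the whole experiment and is described as derived from 1 alignment, with no library named. No value below therefore has a replicate error, and none was tested. The labels trace the cells to the bone marrow. The sources used here do not say how the cells were activated or sorted, nor how many animals were pooled.

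Most SLAM receptors bind a copy of themselves on a neighbouring cell, and tyrosine motifs in their tails recruit SAP, which brings in the kinase Fyn. Without SAP the same motifs bind the phosphatases SHP-1, SHP-2 and SHIP1, so the adaptor sets whether a receptor activates or restrains. The family is known for contacts between T and B cells and for the development of NKT cells, and loss of human SH2D1A causes X-linked lymphoproliferative disease.

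The sequences below are stretches of the regions on which the results turn, read from the RefSeq sequence of GRCm38.p6 (mm10) on the strand of each gene. Each covers up to 100 bases on either side of the strongest summit, and exons of protein-coding genes were left out. Capitals mark matches to 13 short consensus motifs of transcription factors that act in lymphocytes, on either strand. The first set holds the 3 strongest distal regions of Slamf7 and Cd84, which carried the highest signals of the family.
Slamf7 upstream region, chr1:171661559-171661759, minus strand: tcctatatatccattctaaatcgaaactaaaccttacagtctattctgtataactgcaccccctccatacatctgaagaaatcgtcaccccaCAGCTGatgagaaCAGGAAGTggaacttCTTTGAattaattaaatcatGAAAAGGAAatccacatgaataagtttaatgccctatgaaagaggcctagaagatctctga
Cd84 far upstream region, chr1:171815879-171816079, plus strand: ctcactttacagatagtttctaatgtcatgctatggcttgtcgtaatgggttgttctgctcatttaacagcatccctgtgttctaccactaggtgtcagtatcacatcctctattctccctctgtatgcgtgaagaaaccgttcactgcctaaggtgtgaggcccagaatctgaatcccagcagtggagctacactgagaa
Cd84 near upstream region, chr1:171827780-171827980, plus strand: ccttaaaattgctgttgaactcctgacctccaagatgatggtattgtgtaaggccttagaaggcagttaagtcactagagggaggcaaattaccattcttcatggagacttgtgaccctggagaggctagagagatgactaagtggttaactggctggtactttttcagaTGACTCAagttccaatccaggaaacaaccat

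The next set holds 3 stretches at start sites, which show how few CG pairs the promoters of the family had. Slamf7 is shown before its downstream start site, and Cd48 and Slamf1 before their 5' ends.
Slamf7 start site, chr1:171649008-171649129, minus strand: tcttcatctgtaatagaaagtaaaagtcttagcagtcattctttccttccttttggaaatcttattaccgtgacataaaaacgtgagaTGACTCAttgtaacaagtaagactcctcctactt
Cd48 start site, chr1:171681901-171682008, plus strand: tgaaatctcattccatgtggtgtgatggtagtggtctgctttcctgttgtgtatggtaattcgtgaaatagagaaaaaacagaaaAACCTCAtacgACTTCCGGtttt
Slamf1 start site, chr1:171767019-171767126, plus strand: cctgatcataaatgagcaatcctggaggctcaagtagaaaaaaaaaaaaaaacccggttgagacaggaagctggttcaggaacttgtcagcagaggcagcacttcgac

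The last set holds regions of Slamf7, Slamf6 and Sh2d1a that are taken up below for their motif matches. They lie in intron 1 of Slamf7, in an intron of Slamf6 and downstream of Sh2d1a.
Slamf7 intron, chr1:171643756-171643956, minus strand: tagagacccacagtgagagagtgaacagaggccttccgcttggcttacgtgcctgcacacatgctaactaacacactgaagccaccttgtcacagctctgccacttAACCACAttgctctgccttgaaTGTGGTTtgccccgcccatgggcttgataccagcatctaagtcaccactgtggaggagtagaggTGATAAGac
Slamf6 intron, chr1:171939660-171939860, plus strand: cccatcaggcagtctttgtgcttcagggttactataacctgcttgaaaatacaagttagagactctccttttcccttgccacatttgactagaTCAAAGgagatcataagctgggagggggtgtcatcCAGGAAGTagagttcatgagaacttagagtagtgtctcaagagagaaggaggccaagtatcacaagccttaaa
Sh2d1a downstream region, chrX:42540787-42540987, plus strand: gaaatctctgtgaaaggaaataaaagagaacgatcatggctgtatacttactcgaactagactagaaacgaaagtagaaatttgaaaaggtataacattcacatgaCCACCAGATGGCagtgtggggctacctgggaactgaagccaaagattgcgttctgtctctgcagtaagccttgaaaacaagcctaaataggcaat

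All 7 genes had at least 1 region, against 58.2% of all protein-coding genes. A promoter region, one within 1000 bp of any TSS of the gene, was present at 6 of the 7 genes, against 49.1% of all protein-coding genes. Slamf6 was the gene without a promoter region. The number of regions per gene ran from 2 at Ly9 to 7 at Cd48, with a median of 4, whereas the median over all genes was 1 and the mean 1.27. As many as the 2 regions of Ly9 were found at 27.5% of genes, and as many as the 7 of Cd48 at 2.52%. Of the 27 regions, 20 were distal, over 1000 bp from every protein-coding TSS, and 7 were promoter regions. The gene bodies held 16 of them, and 11 lay outside.

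The 6 receptor genes lie side by side in 364.5 kb of chromosome 1, from 171588624 to 171953170, in the order Ly9, Slamf7, Cd48, Slamf1, Cd84 and Slamf6. Ly9 and Slamf7 are read from the minus strand and the other 4 from the plus strand. Cd244a, the SLAM receptor 2B4, overlaps Ly9 on the opposite strand, and Gm10521, an uncharacterised gene, lies between Cd84 and Slamf6. Alyref2 and Itln1 are the nearest protein-coding genes on the Ly9 side, and Vangl2 and Nhlh1 those beyond Slamf6. The summits of 22 regions fell within the cluster, or 6.03 per 100 kb. When the genome was divided into 7465 tiles of this width, the median tile held 1 region and the upper quartile was 6, and 0.710% of tiles held as many as 22.

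Regions were not spread evenly over the cluster. Taking the strongest summit of each region, the longest distance between neighbours was 76278 bp, from intron 2 of Cd84 at 171845236 to intron 1 of Slamf6 at 171921514, which took in most of the Cd84 body and all of Gm10521. In the pseudoreplicated list, which holds weaker peaks, the longest such distance was 60059 bp and began at the same Cd84 summit. The median distance between neighbours past the threshold was 11847 bp. The regions covered 3.50% of the cluster.

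**Figure D1:**
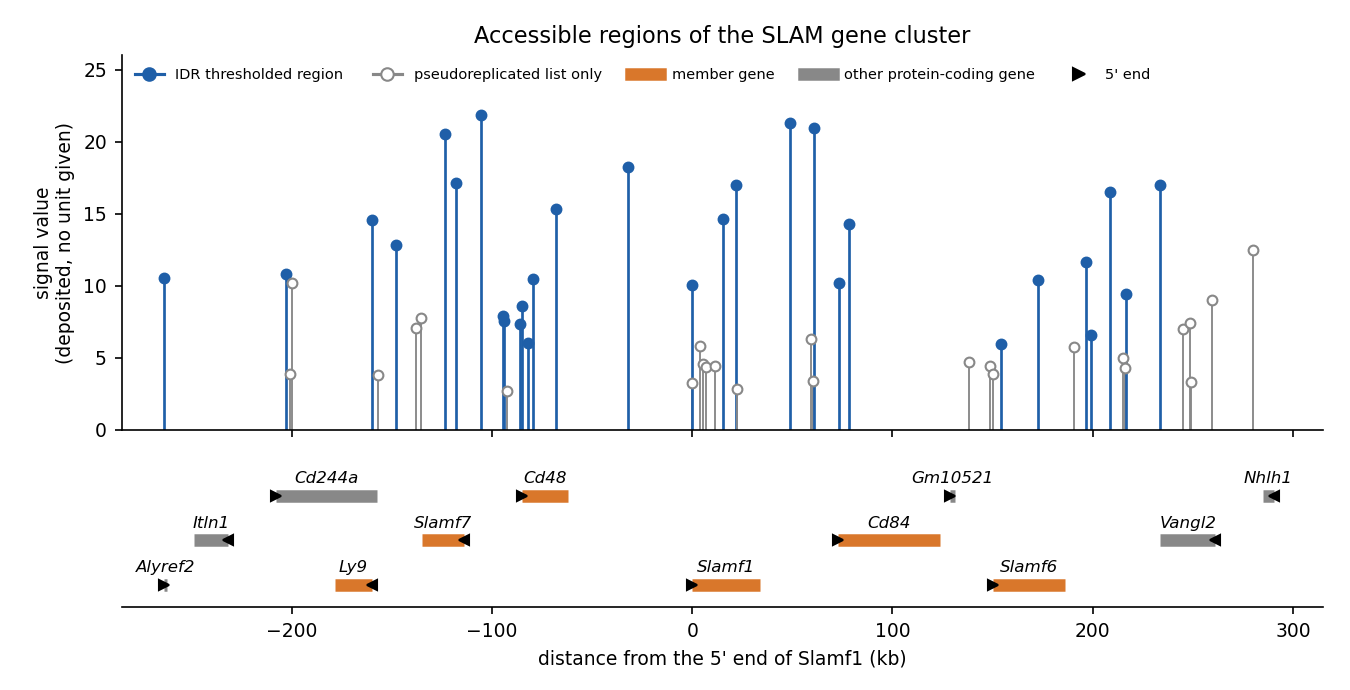
Signal value (vertical axis, as deposited) of each region along the SLAM cluster of chromosome 1, by distance in kb from the 5' end of Slamf1; filled stems are regions of the IDR thresholded list, open stems regions found in the pseudoreplicated list alone, and bars are gene bodies with an arrowhead at the 5' end. The tallest stems stand upstream of and within Slamf7 and upstream of Cd84, and no stem past the threshold stands between intron 2 of Cd84 and intron 1 of Slamf6.

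Signal is given below as the value deposited for the strongest peak of a region, an enrichment for which the sources used here state no unit. In pooled cells, fewer cells with a region open and less opening per cell cannot be told apart. Slamf7, a receptor of NK and activated lymphoid cells that is known to signal mainly through another adaptor, EAT-2, had 3 regions with signals of 21.9, 20.5 and 17.1. All 3 were above the median of all 26090 regions, which was 13.6, and the first 2 were above the upper quartile of 18.0. The strongest (chr1:171661407-171661854) lay 8624 bp upstream of the annotated 5' end and stood at the 89.6th percentile of all regions. The second (chr1:171643532-171644060) lay in intron 1, 9179 bp downstream of the 5' end. The third (chr1:171648790-171649307) was the promoter region, and its summit lay 22 bp from the TSS at 171649007, where 2 of the 5 annotated transcripts begin. The remaining pair of downstream transcripts begin within the same region, while the transcript at the annotated 5' end, 171653035, begins 3728 bp from the nearest region.

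Cd84, a receptor that binds itself and carries SAP-binding motifs, had 4 regions with signals of 21.3, 20.96, 14.3 and 10.2. The strongest pair (chr1:171815601-171816219 and chr1:171827720-171828059) lay upstream of the gene, 23718 and 11817 bp from its 5' end, and were both above the upper quartile of all regions. The remaining distal region (chr1:171845098-171845809) lay in intron 2. The weakest of the 4 (chr1:171840463-171841003) was the promoter region. As at Slamf7, it covered downstream start sites: 3 of the 5 transcripts of Cd84 begin inside it, and its summit was 17 bp from the nearest. The transcript at the 5' end begins 766 bp away.

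Slamf1, the receptor CD150 that gives the family its name, had 4 regions with signals of 18.2, 17.0, 14.6 and 10.1. The strongest (chr1:171734839-171735284) was intergenic, 32034 bp upstream, with no protein-coding gene between it and Slamf1. It was no longer counted for Slamf1, which kept 3 regions, when the TSSs of all gene types competed or with assignment within 20 kb. Regions in intron 4 (chr1:171788242-171789159) and intron 3 (chr1:171781998-171783069) followed. The promoter region (chr1:171766966-171767268) was the weakest of the 4 and 303 bp wide, with its summit 8 bp upstream of the 5' end. All 3 distal regions were above the median of all distal regions, which was 12.7, and the promoter region was below the median of all promoter regions, which was 15.2.

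Ly9, the self-binding receptor CD229, had 2 regions. The promoter region (chr1:171606668-171607711) had a signal of 14.6 and covered all 5 annotated start sites of the gene, with its summit in the 5' UTR 15 bp downstream of the 5' end. It also lies within an intron of Cd244a, so it is counted for that gene too. The other region (chr1:171619070-171619500) was intergenic, 11832 bp upstream, with a signal of 12.8. Both stood close to the median of all regions, at the 56.3rd and 44.5th percentiles.

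Slamf6, the receptor Ly108 that signals through SAP in follicular helper T and NKT cells, had 4 distal regions and no promoter region. Their signals were 11.6, 10.4, 6.60 and 5.93, all below the median of all regions. The strongest (chr1:171963591-171964027) and the third (chr1:171965900-171966725) lay past the 3' end of the gene, by 10662 and 13092 bp. The second (chr1:171939091-171939916) lay in intron 6 and the weakest (chr1:171920924-171922008) in intron 1. The region in intron 1 begins 1432 bp from a TSS at 171919492 that 1 of the 7 transcripts uses. The 5' end itself lay 3409 bp from the nearest region.

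Cd48 encodes a surface protein held by a lipid anchor, with no tail of its own, and serves as the ligand of Cd244a and Cd2. It had the most regions of the family, 7, but 6 of them were weak. The strongest (chr1:171699019-171699399) lay in intron 2 with a signal of 15.3, and the other 6 had signals from 6.01 to 10.5, all below the median of all regions. The next was in intron 1 (chr1:171687350-171687716). The promoter was covered by 2 regions with signals of 8.57 and 7.35, and the stronger (chr1:171681535-171682289) had 3 summits, the highest 8 bp upstream of the 5' end. That region also holds the start of A630035G10Rik, a noncoding transcript that runs away from Cd48 from position 171681980. When the TSSs of all gene types competed for regions, Cd48 kept 4 of its 7.

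Sh2d1a, on chromosome X from 42502453 to 42529330 on the plus strand, had 3 regions with signals of 9.97, 8.40 and 8.24. The promoter region (chrX:42502137-42503619) was the widest of the 27, at 1483 bp with 4 summits, and covered 5 of the 7 annotated start sites. A second (chrX:42511071-42511376) lay in intron 1. The strongest (chrX:42540217-42541054) lay 11557 bp past the 3' end, in an intron of Tenm1, a neuronal cell-contact gene. All 3 were below the median of all regions. The median signal was 14.95 over the 612 regions of chromosome X and 13.6 over the 25471 regions of the autosomes. Male cells carry a single X chromosome, and its part in these signals was not tested. The sequence nearest to a TSS of Sh2d1a spanned 351 kb, compared with 35.0 to 78.9 kb for the receptors.

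Over the family, the order of the strongest region of each gene was Slamf7 (21.9), Cd84 (21.3), Slamf1 (18.2), Cd48 (15.3), Ly9 (14.6), Slamf6 (11.6) and Sh2d1a (9.97). The promoter region was the strongest region at Ly9 alone. At Cd48 and Sh2d1a the promoter was weak as well, with signals at percentiles 14.2 and 12.7 of all promoter regions. The median signal was 10.5 over the 27 regions and 13.6 over all regions. It was 10.1 against 15.2 for promoter regions and 12.2 against 12.7 for distal regions, so the gap to the whole list was wider at promoters. Of the 27 regions, 11 were above the median of all regions, 5 above the upper quartile and 9 below the lower quartile of 9.89.

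**Figure D2:**
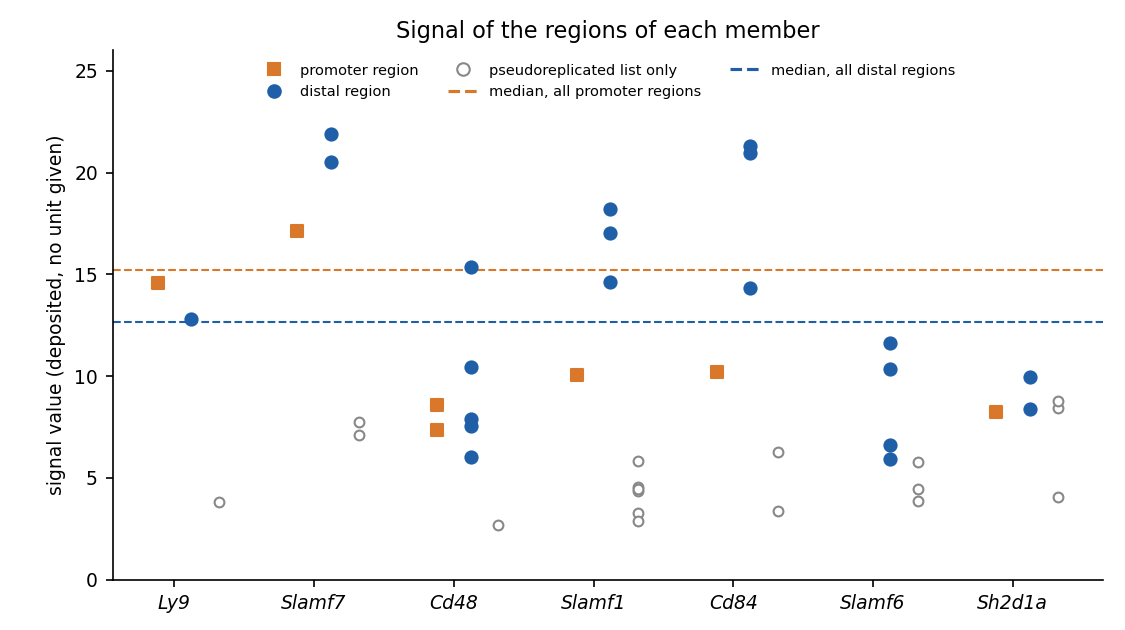
Signal value (vertical axis, as deposited) of every region of each gene; squares are promoter regions, filled circles distal regions, open circles regions of the pseudoreplicated list alone, and dashed lines the medians of all promoter regions (15.2) and all distal regions (12.7). Slamf7 has the sole promoter region above the promoter median, and all regions of Slamf6 and Sh2d1a lie below both lines.

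The annotated start sites differed in how close they lay to accessible chromatin. At Ly9, Cd48, Slamf1 and Sh2d1a the 5' end of the gene lay inside a region. At Slamf7 and Cd84 it did not, while all downstream start sites of Slamf7 and most of those of Cd84 did. The exception at Cd84 was a start site 24 bp from the 5' end, which lay 742 bp from the nearest region. At Slamf6 none of the 7 start sites lay within 1000 bp of a region. With 1 TSS per gene, its 5' end, 5 of the 7 genes had a promoter region, because Slamf7 no longer counted.

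**Figure D3:**
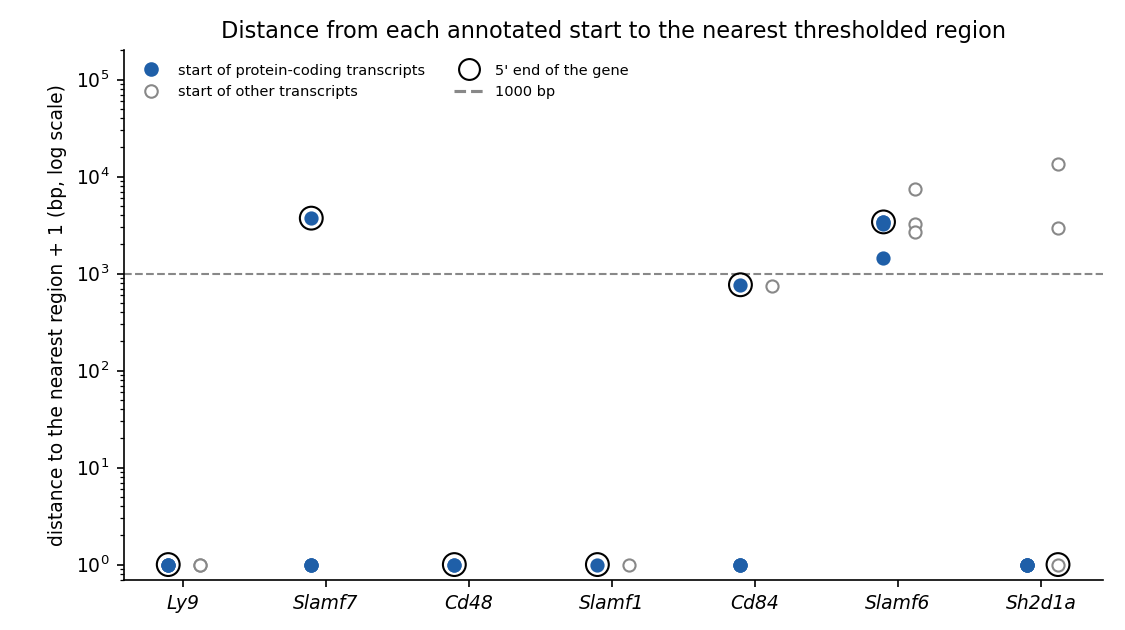
Distance in bp plus 1 (log axis) from every annotated start site of each gene to the nearest region of the thresholded list; filled points are starts of protein-coding transcripts, open points starts of other transcripts, and rings mark the 5' end of the gene. Points at the bottom lie inside a region, and for Slamf7 and Cd84 the ring is above them, at 3728 and 766 bp.

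The promoter regions of the family were poor in CG pairs. Mammalian promoters fall broadly into those that lie in CpG islands and those that do not, and the ratio of observed to expected CpG measures this. The ratio ran from 0.169 at Cd84 to 0.451 at Slamf7 over the 7 promoter regions, with a median of 0.276, and the median of all 11374 promoter regions was 0.738. Ratios of 0.451 or less were found in 17.3% of all promoter regions. The GC content of the 7 ran from 40.2 to 49.9%, against a median of 60.1% for all promoter regions, and 10.2% of all promoter regions had 49.9% or less. Promoter regions with a ratio of 0.451 or less had a median signal of 11.5 (quartiles 8.20 and 16.6) and those above it one of 15.9, and 5 of the 7 regions of the family were below 11.5. For distal regions the ratio was much alike, with medians of 0.249 in the family and 0.246 over all distal regions.

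**Figure D4:**
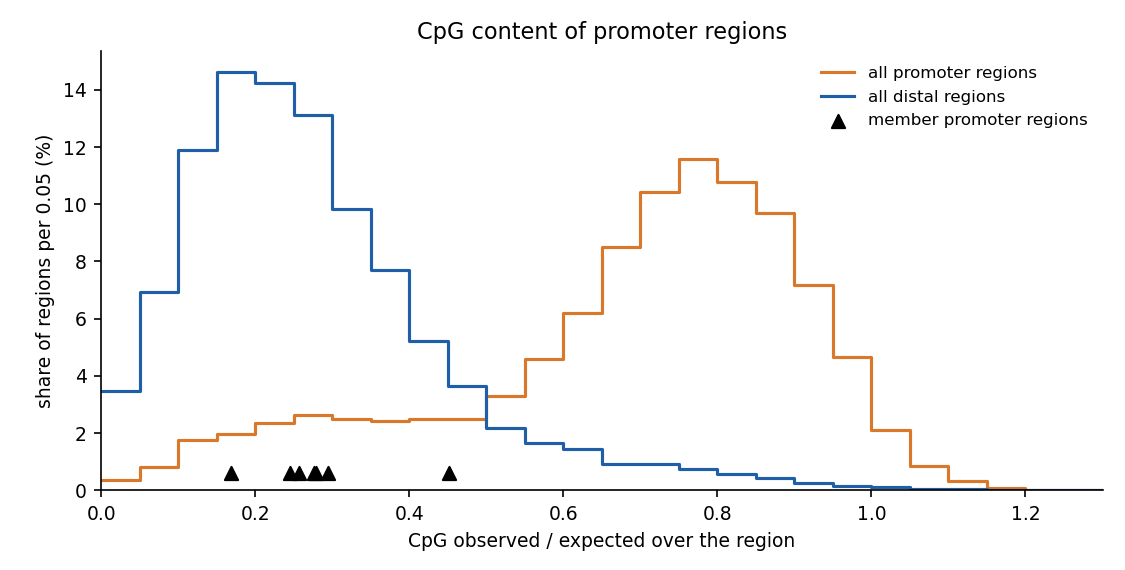
Share of all promoter regions and all distal regions (vertical axis, % per 0.05) by the observed-to-expected CpG ratio of the region (horizontal axis); black triangles mark the 7 promoter regions of the family. The triangles lie between 0.169 and 0.451, where distal regions are common, and the peak of the promoter curve lies to their right.

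The other properties were compared within each class, since 20 of the 27 regions were distal. The median width was 460 bp against 527.5 bp for distal regions and 541 bp against 825 bp for promoter regions. More than 1 summit was present in 35.0% of the family's distal regions, against 37.5% of all, and in 57.1% of its promoter regions, against 72.9%. Repeats made up a median of 11.2% of a distal region against 11.1% and 14.9% of a promoter region against 5.88%, and none of the 27 lay mostly in repeats. Although the receptor genes are related by duplication, blastn found no alignment between any 2 of the 27 regions once repeats were masked, and none to the mitochondrial genome.

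Weaker peaks at the same loci are held in the pseudoreplicated list. All 7 genes had a region there, against 68.4% of all protein-coding genes, and all 7 had a promoter region, against 55.7%. The list gave the family 45 regions, of which 18 had no counterpart past the threshold. These 18 had signals from 2.70 to 8.77, with a median of 4.45. The threshold is set by the irreproducible discovery rate (IDR). The deposited global IDR of a peak estimates the share of peaks ranked at least as high that are not reproducible between 2 inputs. The 18 had IDRs from 0.0901 to 0.388. The thresholded region with the highest IDR was the downstream one of Sh2d1a, at 0.0387.

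The promoter of Slamf6 was among the weak regions. A region of signal 3.88 and IDR 0.167 (chr1:171917309-171917774) covered the 5' end, and one of signal 4.47 and IDR 0.110 (chr1:171915585-171916335) lay farther upstream. Slamf1 gained the most regions, 6, and 5 of them lay in its introns. The strongest of these (chr1:171770917-171771399) was in intron 1, and had a signal of 5.82 at an IDR of 0.104. Slamf7 gained 2, both past its 3' end, with signals of 7.76 and 7.09. Sh2d1a gained 3, and those in introns of Tenm1 had signals of 8.77 and 8.44, higher than the 8.24 of its promoter region, but IDRs of 0.152 and 0.185. Ly9 and Cd48 gained 1 each, and Cd84 gained 2 beside its near upstream region.

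The ranked list also records how each peak ranked in 2 separate inputs, on the −log10 scale of the peak caller's p-value. The sources used here do not say whether these inputs are the 2 libraries. Of the 27 regions, 25 had values within 2-fold of each other, against 98.2% of all regions. The exceptions were both at Cd84: the promoter region had values of 45.2 and 20.5 in inputs 1 and 2, a 2.21-fold difference, and the region in intron 2 had 36.5 and 74.2, a 2.03-fold difference the other way. Input 1 was higher at 11 of the 27 regions and at 49.5% of all regions. An IDR of 0.01 or below was reached by 18 of the 27, which kept 5 of the 7 genes with a promoter region. Cd84 lost its promoter region at this limit, with an IDR of 0.0265, and Ly9 and Sh2d1a kept 1 region each.

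**Figure D5:**
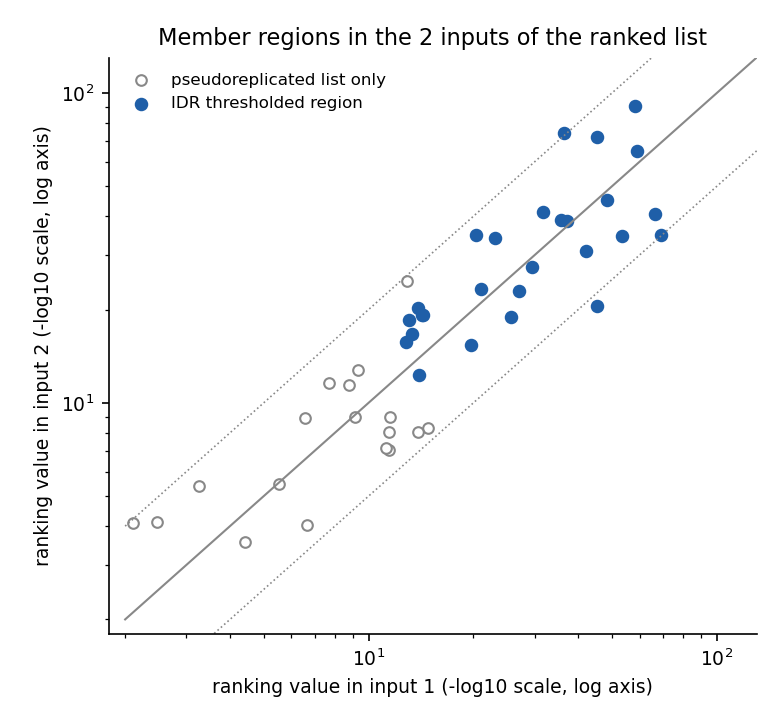
Ranking value of each region of the family in input 1 (horizontal) and input 2 (vertical), both on the −log10 scale with logarithmic axes; filled points are thresholded regions, open points regions of the pseudoreplicated list alone, the solid line marks equal values and dotted lines a 2-fold difference. The regions in intron 2 and at the promoter of Cd84 lie just outside the dotted lines on opposite sides.

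Consensus motifs were sought on both strands within 100 bp of the strongest summit of each region. The letters searched were CNGGAAGT for ETS factors, TGNGGTT for RUNX, TGANTCA for AP-1, TTTTCCA for NFAT, CTTTGA for TCF-1/LEF-1, TGTTTAC for forkhead factors, CCACNCCC for KLF, NGATAAG for GATA, TTCCNGGAA for STAT, GAAANNGAA for IRF, GGANTTTCC for NF-kB and CAGCTG for E proteins, and CTCF by its core motif. A match is a string of letters and not a bound site, and matches may overlap. Only exact matches were counted, so a region without a match may still hold a variant of a motif. The median region had 1 of the 13 motifs both in the family and over all regions, and 33.3% of the family's regions had none, against 32.7%.

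TCF-1/LEF-1 was the motif found most often, in 6 of 27 regions against 13.0% of all regions. All 6 were distal, which is 6 of 20 distal regions against 17.2%. Slamf6 held 3 of the 6, in its introns and in the farther downstream region, and the match in the intron sequence printed above lies 4 bp from the summit, with an ETS match 32 bp away from the summit on the other side. ETS motifs were found in 5 regions against 15.1%, at Ly9, Slamf7, Cd48 and Slamf6, and the match at the Cd48 start site lay at the summit itself. AP-1 was found in 4 regions against 9.39%, among them the Slamf7 start site and the near upstream region of Cd84. RUNX and IRF were found in 3 regions each, against 17.7% and 7.97%. The E protein motif was also found in 3 regions, against 12.4%, GATA in 2, against 4.96%, and NFAT in 1, against 2.88%.

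The strongest region of the family, upstream of Slamf7, held matches for E proteins, ETS, TCF-1/LEF-1 and IRF, the most of the 27. The region in intron 1 of Slamf7 had a pair of RUNX matches on opposite strands close to its summit, and a GATA match. By contrast, the strongest regions of Cd84, Slamf1 and Cd48 had no match to any of the 13 motifs. A CTCF match was found at 1 of 27 regions, the one downstream of Sh2d1a in Tenm1, against 4.28% of all regions. No region of the family had a forkhead, KLF, STAT or NF-kB match, which were found in 3.09, 12.9, 1.01 and 1.51% of all regions.

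The other genes of the pathway were described from a list of 26. At least 1 region was present at 21 of them and a promoter region at 17, beside the 58.2% and 49.1% of all genes. Of the other 3 SLAM receptors, Cd244a had 2 regions, counting the Ly9 promoter region, and none at its own promoter, and Slamf8 and Slamf9, which are expressed in myeloid cells, had none. In the pseudoreplicated list Slamf8 and Slamf9 had 1 region each, and Slamf8 had a promoter region there. Of the other adaptors of the SAP type, Sh2d1b1, which encodes EAT-2, had 1 region and Sh2d1b2 none. That region (chr1:170255272-170255939) lay between these neighbouring genes, past the 3' end of Sh2d1b2 at 170253608 and upstream of Sh2d1b1, which begins at 170277320. It was counted for Sh2d1b1 by the nearest TSS alone. Cd2, a T cell receptor for CD48, had 11 regions, of which 2 were at its promoter.

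All 11 signalling partners had a region and 10 had a promoter region, beside the 58.2% and 49.1% of all genes. Fyn, the kinase that SAP recruits, had 17 regions, Prkcq, the protein kinase C of the T cell synapse, had 19 and none at its promoter, and Pik3r1, the regulatory subunit of PI3 kinase, had 15. Csk, a kinase that restrains the Src family, had 7, and Lck, the Src kinase of the T cell receptor, and Vav1, an exchange factor downstream of SAP and Fyn, had 5 each. The sequence nearest to a TSS of the gene spanned 307 kb for Fyn, 594 kb for Prkcq and 968 kb for Pik3r1. It spanned 26.3 to 65.3 kb for Csk, Lck and Vav1 and 35.0 to 78.9 kb for the 6 receptors. By the rule used, a longer stretch can be given more regions. All 6 phosphatases and inhibitors had a promoter region, beside the 49.1% of all genes, with Inpp5d, the gene of SHIP1, at 6 regions and the adaptor Dok2 at 5. Ptpn6 and Ptpn11, which encode SHP-1 and SHP-2, had 2 and 3. Of the 3 genes whose expression depends on SAP in other T cells, Il21 had 2 regions, and Il4 and Zbtb16, the gene of the NKT factor PLZF, had none. Zbtb16 had 1 and Il4 had 2 in the pseudoreplicated list.

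The cell type of the label was checked with marker genes, since SLAM receptors are carried by many blood cells. Regions were present at 5 of 5 regulatory T cell markers, Foxp3, Il2ra, Ctla4, Ikzf2 and Tnfrsf18, and at 6 of 6 T cell markers, beside the 58.2% of all genes, and promoter regions at 4 and 5 of these, beside the 49.1%. They were present at 2 of 6 myeloid, 3 of 4 NK cell and 2 of 4 stem and progenitor markers, with promoter regions at 0 of these 3 lists' genes. The counts for NK cell and stem and progenitor markers are thus near the share of all genes and do not set these cells apart. Among stem and progenitor markers Cd34 had 4 regions, the strongest with a signal of 20.3, and Kit had 1 of 15.2, while Flt3 and Procr had none. Among NK cell markers Klrb1c had 8, Klrd1 and Eomes 1 each and Ncr1 none. Among myeloid markers Itgam, with a signal of 19.2, and Adgre1 had 1 each, upstream of the gene body, and Csf1r, Lyz2, Cd14 and Cd68 had none. Promoter regions were present at Pax5, a B cell factor with 2 regions, and at Klf1, an erythroid factor with 1, and Cd79a and Cd79b of B cells had 1 region each, away from their promoters. Slamf1 and Cd48 are also used to sort blood stem cells, and the labels trace the cells to the bone marrow; the part of other cells in these regions was not tested.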

How the data were processed

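ATAC-seq was measured in 2 libraries of activated regulatory T cells, and 3 peak lists on mm10, each given for the whole experiment, were used. Per the labels and file headers, the lists are pseudoreplicated peaks, peaks ranked by IDR and peaks past an IDR threshold. The aligner, peak caller, filters, versions and any shift of reads for the transposase were not given in the sources used here. Read depth is unknown. The signal of each peak is the authors' deposited enrichment, and the deposited −log10 columns hold the caller's p-value, the IDR and the ranking value in 2 inputs. The deposited score runs to 1000 and follows the IDR in 100% of ranked rows, and its lowest value past the threshold corresponds to an IDR of 0.0501. These are the authors' values and were used to describe, rank and filter peaks within a list.

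Rows that overlapped by 1 bp were merged, and the strongest peak gave a region its signal and summit. Every transcript start of the 21938 protein-coding genes of 21 chromosomes (GENCODE M21, GRCm38.p6) counted as a TSS. Intron numbers refer to the transcript with the longest coding sequence. Repeats are the soft-masked bases of the RefSeq sequence. Alignments used an E value of 1e-05. RefSeq promoter entries existed for 5 of the 7 genes, and sequences were instead read by coordinates from the RefSeq genome of the same build.

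All 7 genes were named, as were the pathway genes with 5 or more regions or none and the genes of the cluster with its nearest neighbours; other pathway genes, markers and single regions named were chosen after their values were seen. The members and lists were chosen with earlier results of these data known. Counts over the B cell and erythroid marker lists are not reported here. With 1 group there was no test. No likeness between genes was computed, and regions of a gene are not replicates. Python 3.11.15, numpy 2.4.6, pandas 2.3.3, pysam 0.24.0, matplotlib 3.10.9 and blastn 2.17.0 were used.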

Additional observations from a re-analysis of the deposited data

How the results depend on the processing

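The counts and the median signal of the family were recomputed under 12 alternatives fixed with the design. Of 110 counts, 92 kept within 1.5 times the value reported and 18 moved further. The median signal, 10.5, has no replicate error to hold a change against. It was the same under 5 of 10 alternatives, all of which also left the count at 27 regions. Under the other 5 both the count and the median changed. With the pseudoreplicated list the regions rose from 27 to 45, the distal regions from 20 to 36, and the median signal was 8.24. When each peak was counted with its own summit instead of merged, there were 45 regions, 31 of them distal, with a median signal of 8.40. The stricter list, with an IDR of 0.01 or below, left 12 distal regions and gave a median signal of 14.6. The median of all regions is not given for these versions of the list. These family medians can therefore not be set against the 13.6 of all merged thresholded regions. With TSSs of all gene types the median signal was 11.6, and with assignment within 20 kb 10.4. The count of genes with at least 1 region was 7 under all alternatives run, and that of genes with a promoter region ran from 5 to 7. Slamf6 gained a promoter region with the pseudoreplicated list and with a window of 2500 bp. Of the 70 counts of single genes, 13 moved by over 1.5 times, among them Slamf6, which had 2 regions within 20 kb and 4 within 100 kb. No replicate could be left out and no paired analysis was possible because the lists stand for the whole experiment and name no library. Without per-library values or read depth, a weak region cannot be told from one that was sampled thinly, and there is no other cell state against which these regions could be called particular to activated regulatory T cells.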
